A study of Mus musculus with 12 samples.

Results

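Chromosomes 15, 18 and 19 of the mouse held 4978 of the 43905 accessible regions found across 12 ATAC-seq libraries of bone marrow cells. A region is a stretch covered by overlapping peaks (1 bp or more) of any library on the 19 autosomes. The chromosomes were chosen because more regions than expected were called there in cells carrying the fusion MLL-ENL. Values of that group are therefore given as a description, with no test. The record of the choice does not say whether calls of the other groups set the expectation. Of the members, 2011 lay on chromosome 15, 1270 on chromosome 18 and 1697 on chromosome 19. They made up 11.3% of all regions, while the chromosomes held 10.3% of the autosomal length spanned by regions and 9.64% of the protein-coding genes.

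ATAC-seq inserts sequencing adapters into open DNA with a transposase, so a peak marks accessible chromatin. The cells were CD45.2+ and came from the bone marrow of C57BL/6 mice, with 150000 of them sorted per sample by flow cytometry. Each of 4 groups had 3 libraries: wild-type marrow (Control), and leukaemic marrow cells carrying MLL-AF9 (MA9), MLL-ENL (ME) or BRD9-NUTM1 (BN1). The labels give neither the age of the animals, the vector or promoter behind each fusion, nor any gate beyond CD45.2+ for the Control cells, and do not say whether libraries of a group came from separate animals. A p-value therefore measures only the spread between these libraries, which may be technical.

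MLL-AF9 and MLL-ENL join the N-terminal part of the histone methyltransferase MLL to a subunit of transcription elongation complexes and hold genes of the haematopoietic progenitor programme active. BRD9-NUTM1 joins a bromodomain subunit of a SWI/SNF remodelling complex to NUTM1, a testis protein that binds the acetyltransferase p300. Promoters of broadly expressed genes are open in most cell types, while regions far from genes tend to be open in fewer, so a short list of peaks is usually richer in promoters.

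The lists differed in length, with 25541 to 28023 autosomal peaks per Control library, 31968 to 33588 in MA9, 8546 to 9663 in ME and 3011 to 4258 in BN1. They hold no read numbers, so the depth is unknown. Absence of a call does not mean closed chromatin. Of 4 leucocyte marker genes, 4 had a call in every Control and MA9 library, while ME libraries had calls at 3 or 4 and BN1 libraries at 2 or 3, where Ptprc, the gene of CD45, had none. Calls at markers of other cell types moved with the groups. Control libraries had calls at 6 of 6 B cell, 5 of 5 erythroid and 6 of 6 neutrophil markers, against 2, 1 and 3 of them in MA9, 1, 1 and at most 1 in ME and 1, 0 and 0 in BN1. Of 5 T and NK cell markers Control libraries had calls at 1, MA9 at 2 and the others at 0, and of 4 monocyte markers Control and MA9 libraries had calls at 4, ME at 2 and BN1 at no more than 1. Of 6 progenitor markers, Control libraries had calls at 2, MA9 libraries at 5 or 6, ME libraries at 4 and BN1 libraries at no more than 1. The part of cell composition in the comparisons with Control was not tested.

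Promoter sequences show the range from a region called in every library to regions called in some groups only. They are RefSeq sequences of GRCm38.p6, 300 bases each around a gene's start, written 5′ to 3′ on the gene's strand, and each lies wholly within a called region. The Sf1 promoter (chr19:6363440-6363739, plus strand) and the Ep300 promoter (chr15:81585964-81586263, plus strand) were called in all 12 libraries. The Dusp5 promoter (chr19:53528895-53529194, plus strand) was called in every Control, MA9 and ME library and in no BN1 library. The Tuba1a promoter (chr15:98953452-98953751, minus strand) was called in Control and MA9 only, and the Ms4a3 promoter (chr19:11640802-11641101, minus strand) in MA9 and ME only. Capitals mark matches on either strand to the ETS core CCGGAAG, the CCAAT box CCAAT, the GC box GGGCGG, the AP-1 site TGANTCA, the cAMP response element TGACGTCA, the E-box CACGTG or the RUNX core TGTGGT.
Sf1 promoter: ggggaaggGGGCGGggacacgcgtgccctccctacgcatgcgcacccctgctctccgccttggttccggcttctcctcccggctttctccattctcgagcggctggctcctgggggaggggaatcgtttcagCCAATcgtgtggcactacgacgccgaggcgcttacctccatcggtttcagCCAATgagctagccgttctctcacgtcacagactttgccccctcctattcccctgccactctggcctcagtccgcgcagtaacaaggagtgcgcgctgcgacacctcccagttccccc
Ep300 promoter: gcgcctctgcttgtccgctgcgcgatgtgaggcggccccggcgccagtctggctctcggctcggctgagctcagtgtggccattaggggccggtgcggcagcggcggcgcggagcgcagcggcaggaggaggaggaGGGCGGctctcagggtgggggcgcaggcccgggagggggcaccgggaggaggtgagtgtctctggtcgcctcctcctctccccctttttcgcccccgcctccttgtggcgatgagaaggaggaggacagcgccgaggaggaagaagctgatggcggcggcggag
Dusp5 promoter: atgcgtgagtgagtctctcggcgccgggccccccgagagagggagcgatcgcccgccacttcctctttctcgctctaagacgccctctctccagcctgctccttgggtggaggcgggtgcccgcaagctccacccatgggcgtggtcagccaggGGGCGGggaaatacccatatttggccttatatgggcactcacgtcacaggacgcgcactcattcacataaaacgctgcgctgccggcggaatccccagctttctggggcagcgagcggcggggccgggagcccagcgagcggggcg
Tuba1a promoter: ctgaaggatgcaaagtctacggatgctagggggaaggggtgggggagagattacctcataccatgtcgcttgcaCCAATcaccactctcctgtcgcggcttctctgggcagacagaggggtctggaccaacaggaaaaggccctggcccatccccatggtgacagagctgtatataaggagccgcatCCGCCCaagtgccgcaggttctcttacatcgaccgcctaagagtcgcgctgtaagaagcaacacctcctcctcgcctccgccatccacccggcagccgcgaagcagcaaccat
Ms4a3 promoter: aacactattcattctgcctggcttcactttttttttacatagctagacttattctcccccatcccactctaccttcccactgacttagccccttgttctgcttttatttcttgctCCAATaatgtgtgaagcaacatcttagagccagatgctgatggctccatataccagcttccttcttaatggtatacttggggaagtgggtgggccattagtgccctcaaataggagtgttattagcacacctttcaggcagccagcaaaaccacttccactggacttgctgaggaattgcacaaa

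The GC content of these sequences was 64.3% for Sf1, 72.3% for Ep300, 66.7% for Dusp5, 59% for Tuba1a and 44.7% for Ms4a3. GGGCGG stood once in the first 4 (in Tuba1a on the other strand) and not in the Ms4a3 sequence. CCAAT stood 2 times in Sf1 and 1 time each in Tuba1a and Ms4a3. Over all 31396 promoters of the table, 36.0% held GGGCGG, 37.3% CCAAT and 9.0% CCGGAAG. Among the 173 promoters of chromosomes 15 and 19 that were called in all 12 libraries the shares were 78.6%, 55.5% and 20.8%. Among the 1208 without a call they were 21.3%, 36.3% and 2.98%. On the other autosomes the promoters called in all 12 libraries gave nearby values of 78.2%, 49.3% and 20.6% (2205 promoters). TGANTCA went the other way, at 4.62% of member promoters called in all libraries and 9.19% of those without a call. TGACGTCA stood in 2.31% and 0.828% and CACGTG in 9.25% and 5.46%, while TGTGGT stood in 12.7% and 18.3%. Over all promoters of the table, TGANTCA stood in 7.84%, TGACGTCA in 1.83%, CACGTG in 7.14% and TGTGGT in 16.7%. None of the motifs contains another, and a match is only a match of letters. Promoters of chromosome 18 were not used here.

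The chromosomes differed in how many regions they carried before any group was compared. Chromosome 19 held 293 regions per 10 Mb, above each of the 16 other autosomes, which held 128 to 288, and had 122 protein-coding genes per 10 Mb. Chromosome 15 held 200.1 regions and 77.2 genes per 10 Mb, and chromosome 18 held 145 regions and 58.5 genes. The other autosomes had 58.6 to 143 genes per 10 Mb, so chromosome 18 lay just below the most gene-poor of them. Members lay within 1 kb of an end of a protein-coding gene (a gene-end region) in 23.8% of cases, elsewhere within a gene body in 43.2% and between genes in 33.0%. The shares on the other autosomes were 26.4%, 40.2% and 33.4%. By chromosome, the gene-end share was 22.7% on chromosome 15, 21.5% on chromosome 18 and 26.9% on chromosome 19.

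Calls on chromosome 19 were denser against the other autosomes in BN1 than in Control or MA9. Relative call density is the log2 ratio of peaks per 10 Mb on a chromosome to peaks per 10 Mb on the 16 other autosomes of the same library. It sets a chromosome against the rest of its own list but still moves with the length of the list, so values with lists cut to the length of the shortest, by significance, are given beside it. On chromosome 19 it was 0.73, 0.74 and 0.71 in the 3 Control libraries, 0.73, 0.73 and 0.74 in MA9, 0.99, 1.06 and 1.13 in ME and 1.29, 1.12 and 1.09 in BN1. No BN1 library overlapped Control or MA9, and Control and MA9 overlapped each other. The mean difference between BN1 and Control was 0.44 on the log2 scale, or 33.1 peaks per 10 Mb against 14.6 on the other autosomes in BN1 and 185 against 112 in Control. Control, MA9 and BN1 differed in an exact permutation test over all groupings of their 9 libraries (p = 0.0143, also after Benjamini-Hochberg adjustment over the 3 chromosomes, where the smallest unadjusted p is 0.00357). A single pair of groups cannot go below p = 0.1 in an exact permutation test, the value found for BN1 against Control. With lists of equal length BN1 was 0.43 above Control and 0.23 above MA9, and MA9 was 0.20 above Control with no overlap between those libraries (3-group permutation, adjusted p = 0.0107). The call of the 3-group permutation test was lost when peaks below the 25th percentile of significance were left out (0.47, adjusted p = 0.0536) and under 1 stricter significance threshold for all libraries (0.48, adjusted p = 0.0696). Of the 19 autosomes, chromosome 19 had the largest BN1 minus Control difference over all peaks, followed by chromosome 7 (0.37) and chromosome 8 (0.27). Chromosome 13 had the lowest, at -0.48. A higher value in BN1 was thus not particular to chromosome 19, and chromosomes 7, 8 and 13 were not tested.

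On chromosome 15 the relative call density was 0.0548, 0.0448 and 0.0805 in Control, 0.13, 0.15 and 0.16 in MA9, 0.16, 0.23 and 0.26 in ME, and 0.0305, -0.15 and 0.0132 in BN1. Control, MA9 and BN1 did not overlap, with MA9 the highest and BN1 the lowest of the 3 (exact permutation p = 0.00357, the smallest possible; adjusted p = 0.0107). The mean of BN1 was 0.10 below Control and that of MA9 0.0863 above it. Without BN1 replicate 2 the gap between BN1 and Control was -0.0382 (3-group permutation, adjusted p = 0.0107), and under a stricter significance threshold the 3 groups no longer passed (adjusted permutation p = 0.0696). The order of BN1 and Control depended on the peaks used. BN1 was above Control by 0.0926 among the peaks at or above the 75th percentile of significance (3-group adjusted permutation p = 0.364), by 0.16 with lists of equal length (p = 0.121) and by 0.0587 among gene-end peaks (p = 0.282).

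On chromosome 18 every library was below the other autosomes. The values were -0.45, -0.49 and -0.46 in Control, -0.32, -0.33 and -0.35 in MA9, -0.18, -0.11 and -0.0542 in ME and -0.43, -0.40 and -0.48 in BN1. MA9 lay above Control by 0.13 with no overlap, while BN1 and Control overlapped and differed by 0.0262 (exact permutation p over the 3 groups = 0.0143, adjusted p = 0.0143). BN1 minus Control turned to -0.10 at or above the 50th percentile and to -0.0139 at or above the 75th. The 3 groups differed there (adjusted permutation p = 0.0214 and 0.0482), which is no test of that pair. With lists of equal length the 3 groups no longer passed the threshold (adjusted permutation p = 0.0536).

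**Figure D1:**
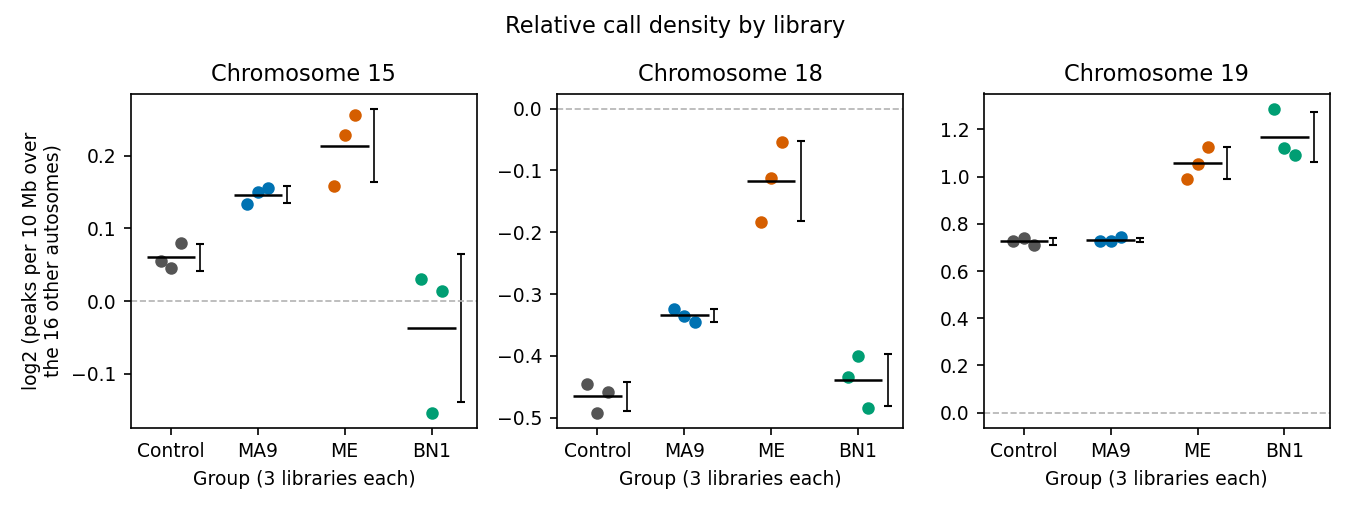
Relative call density (y axis; log2 of peaks per 10 Mb over the same on the 16 other autosomes) of each library (points) on chromosomes 15, 18 and 19, with group means as horizontal lines and the SD of 3 libraries as bars beside them. On chromosome 19 the ME and BN1 libraries sit from 0.99 to 1.29, above all Control and MA9 libraries, and on chromosome 18 the ME libraries sit nearest to 0.

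At matched rank within each library's own list the excess of ME calls stood at different strengths on the 3 chromosomes. A peak's significance percentile is its rank by the deposited −log10 p among the peaks of its own library, from 0 to 100. On chromosome 19 the relative density of ME peaks was 1.36 ± 0.087 (SD, n = 3) at or above the 75th percentile, against 0.76 ± 0.0030 in Control, 0.76 ± 0.022 in MA9 and 1.48 ± 0.19 in BN1. Below the 25th percentile it was 0.86 ± 0.11 in ME and 0.63 ± 0.088 in Control, a smaller gap. On chromosome 15 the strongest ME peaks stood at 0.30 ± 0.040, against -0.13 ± 0.045 in Control and 0.04 ± 0.032 in MA9. On chromosome 18 they stood at -0.31 ± 0.11, close to MA9 at -0.30 ± 0.026 and above Control at -0.51 ± 0.015. ME peaks of chromosome 18 between the 50th and 75th percentile stood at 0.089 ± 0.037. Control was at -0.51 ± 0.013 and MA9 at -0.35 ± 0.047 there. In the difference between ME and Control over all peaks, chromosome 18 had the largest value of the 19 autosomes (0.35), followed by chromosome 19 (0.33), chromosome 8 (0.18) and chromosome 15 (0.15).

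Calls were also compared among regions that were open in both longer lists. Of the 16389 regions called in all Control and all MA9 libraries, 699 lay on chromosome 15, 413 on chromosome 18 and 661 on chromosome 19. The number expected to be called in a library was taken from regions of the 16 other autosomes with the same decile of mean significance in Control and MA9 and the same gene-end status. In ME the ratio of called to expected regions was 1.12, 1.2 and 1.22 on chromosome 15, 1.16, 1.2 and 1.26 on chromosome 18 and 1.12, 1.16 and 1.21 on chromosome 19. These were the 3 highest means of the 19 autosomes, a description only, since ME calls chose the chromosomes. The means of the others ran from 0.940 to 1.06.

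The record of the choice names ME calls and no BN1 calls. In BN1 the ratio on chromosome 19 was 1.29, 1.12 and 1.14, the highest mean of the 19 autosomes (1.19 ± 0.093, SD, n = 3), and on chromosome 18 it was 1.12, 1.16 and 1.06, the second highest (1.12 ± 0.049). On chromosome 15 it was 1.08, 0.909 and 1.02, with a mean of 1.0 ± 0.086 that ranked 11th. Means of the 16 others ran from 0.887 to 1.08 and their single libraries from 0.852 to 1.13, and these ranges held every BN1 library on chromosome 15, 2 on chromosome 18 and 1 on chromosome 19. The chromosome 18 mean was 0.992 when only calls in MA9 defined the reference regions. Chromosomes are not replicates, and no test was made of these ratios.

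**Figure D2:**
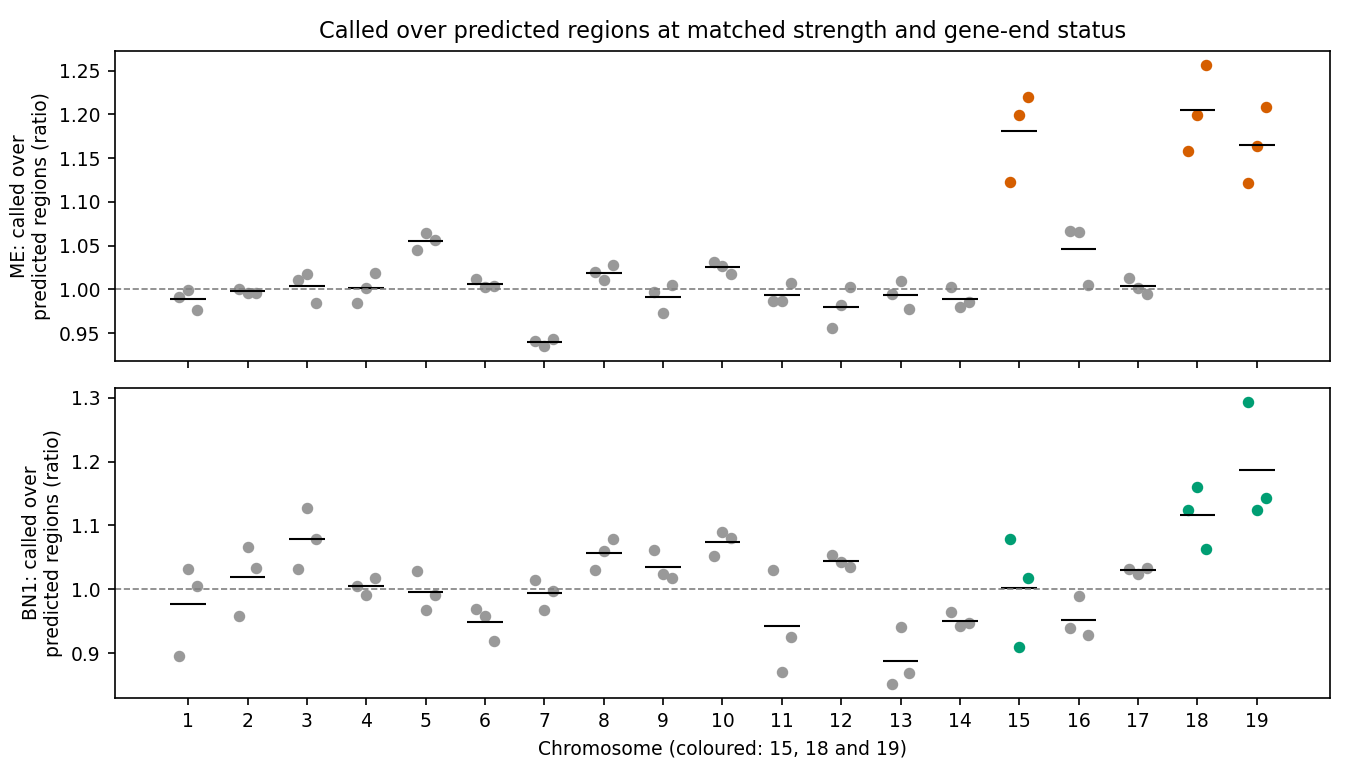
Called over predicted (expected) regions on each of the 19 autosomes in ME (top) and BN1 (bottom), with libraries as points and means as lines; chromosomes 15, 18 and 19 are coloured and the others grey. The coloured ME libraries sit between 1.12 and 1.26, and the BN1 libraries reach from 0.909 on chromosome 15 to 1.29 on chromosome 19.

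The share of regions called in ME was near 0 or near 100% at the ends of the range of strength, so a gap could show only between them. Among members in the second decile of Control and MA9 significance 11.9% were called in an ME library on average, against 5.85% on the other autosomes. In the fifth decile the shares were 42.4% and 27.1%, in the seventh 84.4% and 66.0%, and in the ninth 99.6% and 99.2%. In the lowest decile they were 0.625% and 0.856%, and as a ratio the gap was larger in the second decile than in the seventh. The chromosomes did not share every decile: in the eighth, regions of chromosome 15 were called at 85.2%, below the 90.3% of the other autosomes, and those of chromosomes 18 and 19 at 99.3% and 98.2%. Gene-end regions were called in ME at 71.9% on chromosome 15, 78.7% on chromosome 18 and 76.4% on chromosome 19, against 64.3% elsewhere. Regions over 1 kb from a gene end were called at 38.3%, 40.4% and 34.8%, against 29.9% elsewhere. In BN1 gene-end members were called at 29.6%, 31.0% and 37.0%, against 27.6%, and the others at 10.5%, 12.7% and 13.6%, against 11.2%.

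**Figure D3:**
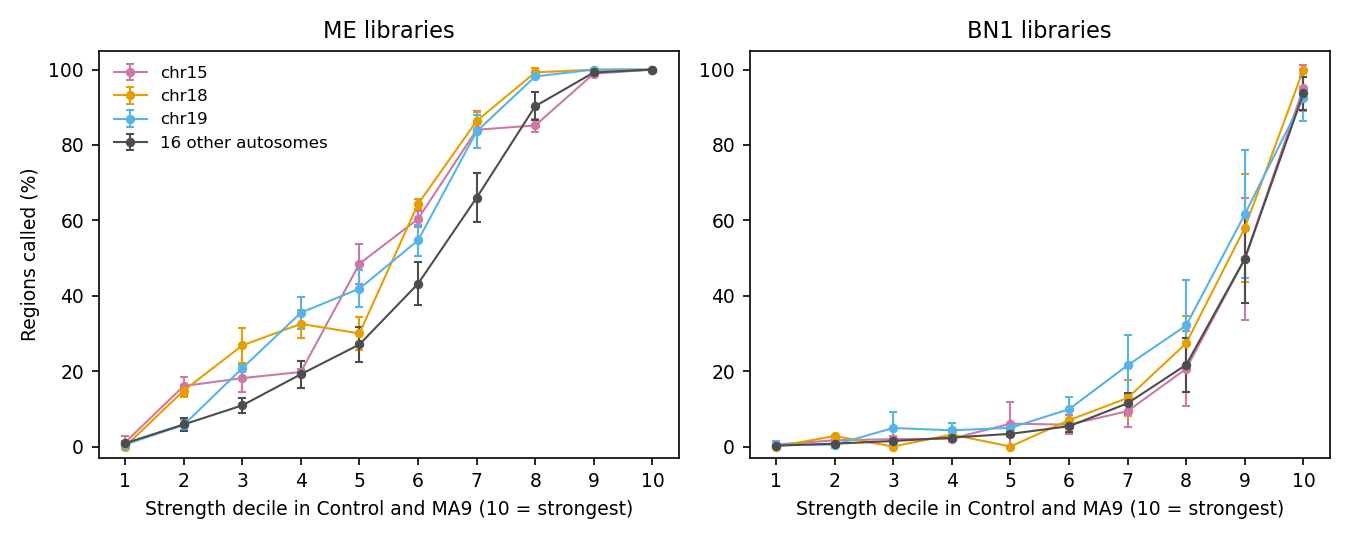
Percent of regions called (y axis, mean and SD of 3 libraries) in ME (left) and BN1 (right) by decile of significance in Control and MA9 (x axis, 10 the strongest), for chromosomes 15, 18 and 19 and the 16 other autosomes. In ME the member chromosomes stand above the others from the third to the seventh decile, and all curves meet at the lowest and highest deciles. The gap is small on chromosome 15 in the fourth (19.8% against 19.2%) and on chromosome 18 in the fifth (30.0% against 27.1%).

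The excess of ME calls was spread along the chromosomes. This is a description only, since ME calls chose the chromosomes and the expectation came from the other autosomes. In windows of 10 Mb with at least 1 expected ME call, the ratio of called to expected regions was above 1 in 27 of 27 windows on the 3 chromosomes, from 1.05 to 1.64, and in 130 of 226 windows elsewhere (57.5%). With at least 20 expected calls it was above 1 in 14 of 14 and in 54 of 127 (42.5%). The highest window, at 20 to 30 Mb of chromosome 15, rested on 23 regions, of which 14 to 15 were called per ME library against 8.94 expected. The first 10 Mb of chromosome 19 held 233 regions, with 150 to 152 called against 131 expected. In BN1 the ratio was above 1 in 18 of 27 member windows and in 122 of 223 elsewhere (54.7%). With at least 5 expected calls it was above 1 in 13 of 20 and in 81 of 163 (49.7%). The first 10 Mb of chromosome 19 gave 68 to 104 BN1 calls against 64.5 expected.

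**Figure D4:**
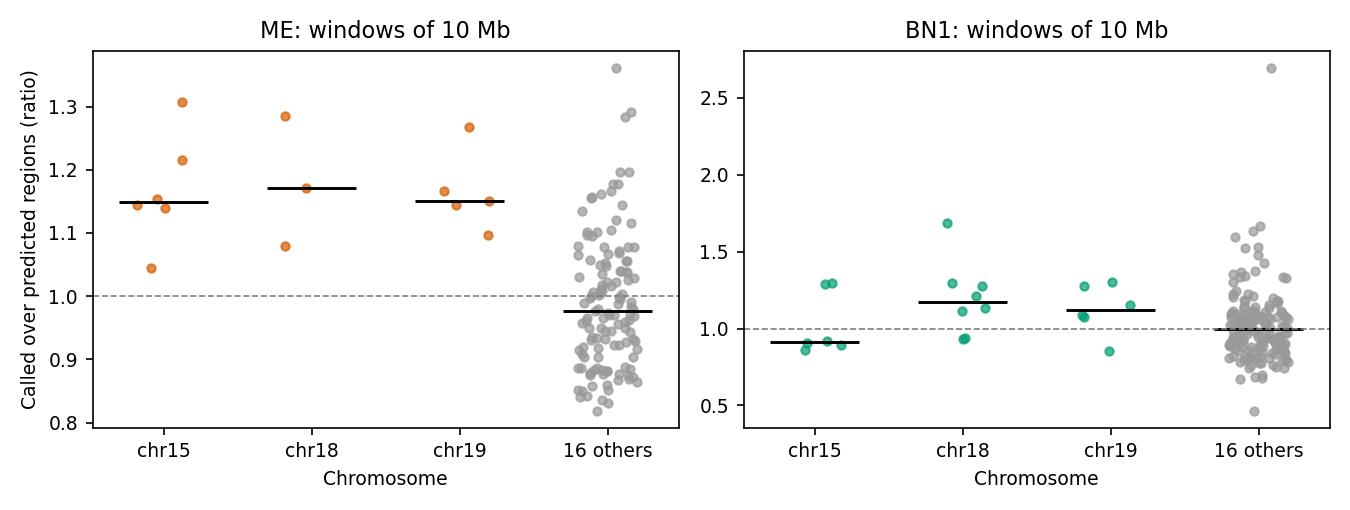
Called over predicted (expected) regions in windows of 10 Mb (points, medians as lines) with at least 20 predicted ME calls (left) or 5 predicted BN1 calls (right), on chromosomes 15, 18 and 19 and the 16 other autosomes. The 14 ME windows of the member chromosomes lie above 1, a description only since ME calls chose these chromosomes, while 13 of 20 BN1 windows do.

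Peaks on the 3 chromosomes had lower shares near gene ends than those on the other autosomes in every group mean. The difference, members minus others, was -3.14 percentage points in Control (33.2% against 36.3%), -2.99 in MA9 (28.7% against 31.7%), -1.19 in BN1 (63.6% against 64.8%) and -5.9 in ME (54.7% against 60.6%). It differed between Control, MA9 and BN1 (exact permutation p = 0.0107), with BN1 1.95 points above Control. With lists of equal length BN1 minus Control turned to -2.48 points, with an exact permutation p over the 3 groups of 0.0214. Without Control replicate 2 or 3 the exact permutation p was 0.05 or 0.0536. Median peak width, members minus others, differed by 4.17 bp in Control, -5.5 bp in MA9 and BN1 and -0.333 bp in ME. BN1 minus Control was -9.67 bp (exact permutation p over the 3 groups = 0.0357). That call was lost among peaks at or above the 50th percentile (p = 0.429) and without Control replicate 1 (p = 0.05) or 2 (p = 0.0571), in the same exact permutation test.

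Of the members, 286 (5.75%) were called in all 12 libraries, against 5.48% of all regions, with 97 on chromosome 15, 66 on chromosome 18 and 123 on chromosome 19. The strongest on chromosome 15 lay at Sp1 (chr15:102405055-102406983), the gene of a transcription factor that binds GC boxes, with percentiles of 98.6 to 99.9 in every library. Others were near Wnt7b, a Wnt ligand, AW549877, Rbx1, a subunit of cullin ubiquitin ligases, and Ddx17, an RNA helicase. On chromosome 18 they were near Nedd4l and Sec11c, at 97.8 and 19.6 kb from the gene end, and at Ankhd1, Malt1, the protease of the NF-κB pathway in lymphocytes, and Mex3c. On chromosome 19 they were near Olfr1454, an olfactory receptor gene, and at Sf1, a splicing factor, LOC114841036, Esrra, an orphan nuclear receptor of energy metabolism, and Hnrnpul2. All 3 BN1 libraries had a call in 294 members (5.91%), against 5.64% of all regions. None of these, against 0.00911% of all regions, was without a call in every other library.

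BN1 against Control left few gains. Gained means called in the 3 libraries of a leukaemia and in no Control library, and lost means the reverse. BN1 gained 6 members (0.121%), against 0.082% of all 43905 regions, and lost 2004 (40.3%), against 43.4%. None of the 6 gained regions was a gene-end region, and on the other autosomes 93.3% of gained regions lay farther than 1 kb from a gene end. All 6 were also called in every MA9 library, as were 62.7% of all members. The region 37.18 kb from Ano6, a phospholipid scramblase (chr15:95828023-95829024), had percentiles of 77.5, 62.1 and 79.9 in BN1, 90.4, 90.1 and 92.8 in MA9 and 84.1, 84.0 and 83.8 in ME, with no call in Control. The region 5.139 kb from Pura (chr18:36274587-36275421), a nucleic acid binding protein, was at 80.2, 55 and 71.8 in BN1 and 96.2, 96.4 and 97.3 in MA9 and was not called in ME or Control. The others were near Gypc, Anxa1 (622.8 kb away), Bin1 and Tob2, at mean BN1 percentiles of 30.5, 28.1, 11.1 and 11. Percentiles rank peaks within lists of unequal length and do not compare levels between groups.

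Of all members lost in BN1, 72.3% lay farther than 1 kb from a gene end, against 68.0% on the other autosomes, while 9 of the 10 strongest were gene-end regions. Kif11, a kinesin of the mitotic spindle, had Control percentiles of 98.6, 98.5 and 98.5, MA9 83.7, 84.4 and 80.2, ME 38.9, 36.4 and 32.8, and no BN1 call. Cdc25c, a phosphatase that starts mitosis, and Kif20a, a kinesin of cytokinesis, had means of 97.1 and 94.7 in Control and 55.9 and 55.1 in ME. Dusp5, a nuclear phosphatase that inactivates ERK and whose promoter is printed above, was at 96.0, 95.2 and 95.9 in Control, 94.8, 94.4 and 94.0 in MA9 and 81.8, 84.9 and 84.9 in ME. The others were Zmat2 and Ik, both linked to the spliceosome, Prdx3, a mitochondrial peroxidase, Nckap1l, a haematopoietic actin regulator, Arhgap12, and a region 32.442 kb from Smndc1. The last 2 were also without a call in ME.

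MA9 gained 1126 members against Control (22.6%), against 21.1% of all regions, and lost 584 (11.7%), against 12.1%. Among the gained regions 89.3% were farther than 1 kb from any gene end, and among the lost 90.1%, against 87.8% and 86.6% on the other autosomes. The strongest gains lay near Pura, Gpam, which starts triglyceride synthesis (92.2, 91.7 and 89.6), Ano6, Snx24, Slc22a6, Bop1, a ribosome biogenesis factor, Slc38a4, Socs6, Cep192 and Nedd4l. All of these but Pura and Slc22a6 also had calls in every ME library. The strongest losses were near Marchf5, Ablim1, Lmnb1, Celf4, Add3, Scd1, Rapgef3, Srebf2, Cxxc5 and Slit1, with mean Control percentiles of 77.2 to 83.5. None of the 10 was called in any leukaemic library, which held for all 584 lost members and for 4729 of 4733 lost regions on the other autosomes.

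ME gained 67 members against Control (1.35%), against 0.911% of all regions, and lost 1464 (29.4%), against 33.4%. Calls in ME had chosen the chromosomes, so nothing is read from these shares. Behind the Ano6 region the strongest gain lay 36.23 kb from Kif21a (chr15:90896396-90897045), at 78.8, 85.6 and 78.5 in ME, with no call in Control or MA9 and calls at 0.531 and 1.4 in 2 BN1 libraries. Others were near Slc22a22, Anxa1, Mxi1, an antagonist of Myc, Gpam, Ccbe1, Gypc and Sh3tc2, each also called in all MA9 libraries. The region 12.36 kb from Prdx5 (chr19:6894061-6894337) was the only member called in all ME libraries and in no other library, at 54.7, 55.5 and 59.4. The strongest losses were at or near Smndc1, Arhgap12, Tuba1a, an alpha-tubulin, Cerk, Tmem138, Spatc1, Apobec3, Ak3, Ccdc88b and Cd74, the invariant chain of MHC class II. All 10 were called in every MA9 library, with MA9 means from 16.6 at Smndc1 to 73.0 at Cerk.

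Between ME and BN1, 496 members were called in all ME and no BN1 library (9.96%), against 8.09% of all regions, and 2 in the reverse case (0.0402%), against 0.0456%. The 2 were the Pura region and a gene-end region of Ehd1 (chr19:6299512-6300120), an endosomal recycling protein, at 12.8, 33.5 and 49.5 in BN1. The region 2.462 kb from Galr3 was at 84.4, 84.9 and 82.4 in ME, 85.0, 85.2 and 84.2 in Control and 95.3, 95.2 and 96.1 in MA9. A region 138.582 kb from Atrnl1 was at 80.5, 81.3 and 82.8 in ME and 95.0, 95.5 and 95.6 in MA9 but at 8.11, 4.58 and 12.9 in Control. Others of this kind were Dusp5, Lmnb1, Mafa, Tex33, 6030458C11Rik, Gpr84, a myeloid fatty acid receptor, Slc22a22 and 8030462N17Rik, all with calls in every MA9 library and mean ME percentiles of 74.8 to 83.9. Of the 10, only the Slc22a22 region had no Control call.

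Genes of the 3 chromosomes were grouped into 7 lists by known role. A gene counted as called in a group when at least 1 region within its body or 1 kb of it was called in all 3 libraries of that group. A percentile given for a gene is that of its strongest region in each library, which need not be the same region in all. Over all 20665 protein-coding genes the share called was 51.8% for Control, 56% for MA9, 32.1% for ME and 12.2% for BN1. The lists were picked for genes known in blood cells or in all cells, apart from the list of genes silent in blood. No test was made of a list.

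Of 19 chromatin and leukaemia regulators, 19 were called in Control and in MA9, 14 in ME and 9 in BN1. Those called in BN1 were Trib1, Ep300, Kmt2d, Rad21, Mrtfa, Mbd2, Men1, Kdm2a and Smc3. Ep300, the gene of p300, had Control percentiles of 95.6, 94.2 and 92.9, MA9 93.2, 93.5 and 93.9, ME 78.6, 83.5 and 81.7 and BN1 39.3, 2.41 and 13.9. It was called in every library, and the ranks of the short BN1 lists cannot be set against the others. Men1, the gene of menin, which tethers MLL to chromatin, was at 82.3, 41.4 and 69.2 in BN1 and 73.8, 77.7 and 73.5 in ME. Smc3 and Rad21, subunits of cohesin, were called in every library, Smc3 at 76.8 or more. Ss18 and Smarcd1, subunits of SWI/SNF complexes, had no BN1 call, and Smarca2, a catalytic ATPase of these complexes, had 1 at 5.05. Ss18 was at 67.2, 66.4 and 66.2 in ME, while Smarcd1 was called in 2 ME libraries, at 24.7 and 9.41. Hhex, a homeobox gene of haematopoietic progenitors, was at 72.9, 67.2 and 67.9 in Control, 88.0, 87.3 and 84.6 in MA9 and 63.6, 63.9 and 63.9 in ME, with no BN1 call. Tcf4 and Zeb1, both E-box binding factors, also had no BN1 call, and Hdac3 and Setbp1 none in BN1 or ME.

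Myc, on chromosome 15, was called at 28.1, 26.0 and 32.3 in Control and 56.7, 59.9 and 61.1 in MA9, at 1.19 and 1.79 in 2 ME libraries and in no BN1 library. The MA9 and ME values are those of its gene-end region (chr15:61984892-61985829), where Control stood at 28.1, 17.3 and 17.9. The Control values of 26.0 and 32.3 belong to a region in the gene body (chr15:61986718-61987806). The surroundings of Myc, chosen after these values were seen, held 13 regions nearest to Myc, of which 5 were called in all Control, 5 in all MA9, 1 in all ME and 0 in all BN1 libraries. Among all members the shares were 50.1%, 62.7%, 19.7% and 5.91% in the same order. The region 1.617 kb from the gene (chr15:61983339-61983724) was called in every Control, MA9 and ME library. The regions at chr15:62169204-62170174 and chr15:62181383-62181919, within the long noncoding gene Pvt1, were called in Control only, at 71.0, 66.9 and 73.0 and at 56.1, 49.7 and 48.9. Also within Pvt1, chr15:62056419-62056759 and chr15:62152211-62152499 were called in MA9 only, at 27.1, 27.8 and 7.04 and at 37.4, 25.7 and 55.1. Of the 13 regions, 2 were called in all Control libraries and no other, and 3 in all MA9 libraries and no other. Further on, chr15:63704537-63705149, nearest to Gsdmc, was at 87.9, 88.1 and 86.7 in MA9, against 6.79, 3.05 and 33.3 in Control and 33.1, 24.7 and 10.5 in ME. Of the 10 regions nearest to Gsdmc, 4 were called in all MA9 libraries and no other, against 20.2% of all members and 19.5% of regions on the other autosomes. So few regions, picked after the values were seen, show nothing particular to this place.

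Of 16 myeloid genes, 13 were called in Control and in MA9, 10 in ME and 3 in BN1. Ncf4, a subunit of the phagocyte oxidase, was at 85.8, 87.2 and 88.5 in BN1 and at 90.2 or more in every other library. Egr1 and Nr4a1, immediate early transcription factors, were the other 2 in BN1. Csf1r, the receptor of macrophage colony-stimulating factor, was at 71.9, 68.7 and 66.1 in Control, 87.8, 88.7 and 89.0 in MA9 and 57.6, 53.9 and 52.9 in ME, and at 15.2 in 1 BN1 library. Ms4a3, a gene of granulocyte and monocyte progenitors, had no Control or BN1 call and was at 63.0, 57.8 and 61.1 in MA9 and 24.2, 41.3 and 30.0 in ME. Dock8, Entpd1, Unc93b1 and Map3k8 were called in every Control, MA9 and ME library and in no BN1 library. Rac2, a GTPase of phagocytes, had 1 BN1 call, at 7.14. Csf2rb, the shared chain of the GM-CSF and IL-3 receptors, was called in all Control and MA9 libraries only.

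Of 15 lymphoid genes, 10 were called in Control, 7 in MA9, 1 in ME and none in BN1. Ms4a1, which codes for CD20, was at 72.8, 66.9 and 75.3 in Control with no call in the leukaemias, and Tnfrsf13c, the BAFF receptor, and Ptprcap showed the same pattern of calls. Nfatc1, a transcription factor of activated lymphocytes, was the 1 called in ME, at 27.8, 23.7 and 24.9. Cd74 was at 88.8, 84.7 and 90.9 in Control and 67.2, 72.3 and 65.0 in MA9. Cd6 went the other way, with no Control call and 27.1, 7.49 and 41.2 in MA9. Cd5 was at 76.1, 69.4 and 80.0 in Control, 66.9, 64.7 and 70.6 in MA9, and 13.3 and 16.1 in 2 ME libraries. Control libraries had calls at all 6 B cell markers and the ME and BN1 libraries at 1, and the part of B cells in these values was not tested. Of the 3 erythroid and iron genes, Nfe2, a transcription factor of erythroid cells and megakaryocytes, and Fth1, ferritin heavy chain, were called in all 12 libraries, and Fech, which inserts iron into haem, in all but BN1.

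Of 14 signalling genes, 13 were called in Control and in MA9, 11 in ME and 3 in BN1. Those in BN1 were Rela and Nfkb2, subunits of NF-κB, and Mxi1. Rela was at 80.8, 58.1 and 60.9 in BN1 and 77.6, 77.5 and 70.1 in ME. Smad2, Smad4 and Smad7, effectors and inhibitor of TGF-β signalling, were called in all ME libraries, and in BN1 1 library had a call at Smad2. Tcf7l2, a Wnt effector, was at 24.4, 20.6 and 35.3 in Control and 88.2, 84.0 and 88.2 in MA9. Jak2, a cytokine receptor kinase, was at 62.2, 54.4 and 52.9 in ME, with no BN1 call.

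Of 17 housekeeping genes, 17 were called in Control and MA9, 16 in ME and 11 in BN1. Sf1 was at 98.7, 98.4 and 98.5 in BN1 and above that in the other libraries, and Eef1g, a translation elongation factor, at 91.9, 90.7 and 91.1. Rpl8 and Rps14, ribosomal proteins, and Xrcc6, of DNA end joining, had no BN1 call. Of 10 genes silent in blood, 0 were called in Control, ME and BN1 and 2 in MA9, Aqp2, a kidney water channel (63.0, 65.2 and 56.5), and Pax2, a kidney and brain transcription factor (39.3, 44.1 and 44.7).

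**Figure D5:**
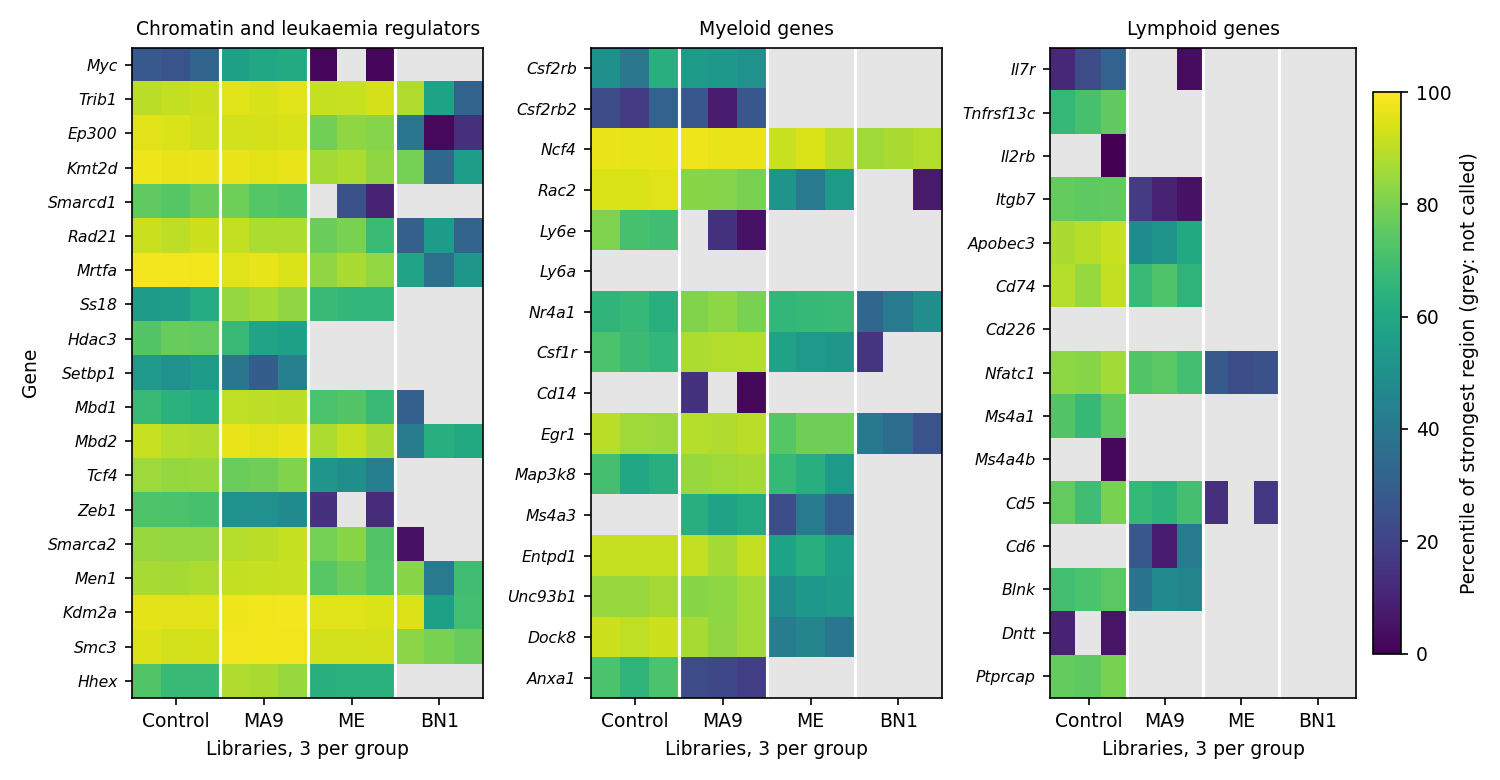
Significance percentile of the strongest called region at each gene (colour, 0 to 100; grey where not called) in the 12 libraries (columns, 3 per group), for the chromatin and leukaemia regulators, myeloid and lymphoid genes. Ncf4, Smc3 and Kdm2a are coloured in every column, and no lymphoid gene is coloured in BN1.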

How the data were processed

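The authors deposited 1 peak list per library (narrowPeak layout, build GRCm38). The submitters' processing notes name deepTools 3.5.1, Picard 3.2.0, Bowtie2 2.5.4 and Genrich. The version and options of Genrich are not given in the sources used here. The deposited signal of a peak, at least 200.0, and the deposited −log10 p were used as ranks within a library or as thresholds, and the deposited −log10 q and score were not used. Depth per library is unknown.

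Autosomal peaks were merged into regions with Python 3.11.15, pandas 2.3.3 and scipy 1.17.1. Gene positions were those of RefSeq on GRCm38.p6, without strand, so gene ends replaced start sites, and a region was named by the nearest end of a protein-coding gene. Chromosome length was the span from the first to the last region. Relative call density, gene-end share and width were tested by exact permutation of 9 libraries in 3 groups (1680 splits), two-sided, threshold 0.05. Scripts were tested on simulated data. Members, gene lists and alternatives were chosen with earlier results of these data known. Named regions were the 5 strongest called in all libraries per chromosome, the 10 strongest gained and lost in each comparison, and genes of the lists. Values of list genes are given for examples, and 1 gene was left out of the lists and is not reported here. No 2 libraries of a group shared more than 2.19% of identical peaks. Same-numbered libraries did not deviate together, so the numbers were not used as pairs.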

Additional observations from a re-analysis of the deposited data

Results flagged for a closer look

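In relative call density of chromosome 15, BN1 minus MA9 was -0.18 on the log2 scale. Every BN1 library lay below and every MA9 library above the 3 Control libraries. The 3 groups differed in the exact permutation test over 9 libraries (p = 0.00357), which is no test of BN1 against MA9. That pair alone gave p = 0.1 in an exact permutation test, the smallest value possible for it. The differences of BN1 and MA9 from Control share their controls. BN1 minus MA9 was -0.0759 at or above the 75th percentile of significance, 0.0263 with lists of equal length and 0.00270 among gene-end peaks, and under these 3 settings the mean of BN1 was above that of Control. Without BN1 replicate 2 the gap between BN1 and Control was -0.0382.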

How the results depend on the processing

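Chromosome 19 kept a higher relative call density in BN1 than in Control under every alternative run (0.38 to 0.72), while on chromosomes 15 and 18 direction and call depended on the peaks used. Each p below is from the exact permutation test over the 3 groups Control, MA9 and BN1 and does not test the difference beside it. In log2 units of BN1 minus Control, with the adjusted permutation p, chromosome 15 gave 0.0926 (p = 0.364) at or above the 75th percentile, 0.16 (p = 0.121) with lists of equal length, 0.0587 (p = 0.282) for gene-end peaks and -0.11 (p = 0.0696) under the stricter threshold. In the same permutation test chromosome 18 gave 0.0439 (p = 0.132) at or above the 25th percentile, -0.10 (p = 0.0214) at the 50th, -0.0139 (p = 0.0482) at the 75th, 0.0705 (p = 0.232) at the 50th percentile of signal, 0.14 (p = 0.0536) with equal length and 0.0885 (p = 0.139) under the stricter threshold. By permutation, chromosome 19 gave 0.47 (p = 0.0536) at the 25th percentile and 0.48 (p = 0.0696) under the stricter threshold. In the exact permutation within the replicate block the differences were -0.10, 0.0262 and 0.44 on chromosomes 15, 18 and 19, each with adjusted p = 0.0833, and the width gap stayed at -9.67 bp (p = 0.111). Same-numbered libraries of different groups correlated at -0.0812 to 0.163 (1 of 18 pairs over 0.1), and 4 of 12 libraries correlated best with their own number. Leaving out a library gave -0.13 to -0.04, 0.01 to 0.05 and 0.38 to 0.48 for the 3 chromosomes, 1.51 to 2.34 points for the gene-end share and -11.4 to -8.67 bp for the width. By exact permutation the gene-end share turned to -0.0805 points (p = 0.743) at the 50th percentile and to -2.48 (p = 0.0214) with equal length, and was 1.13 (p = 0.1) under the stricter threshold. The width gap by exact permutation was -3.33 bp (p = 0.429), -16.5 bp (p = 0.321) and -10.5 bp (p = 0.1) under the same 3 settings. Called over expected regions of ME on chromosome 18 were 1.25 with reference regions from Control only. For BN1 they were 0.978 on chromosome 15 and 0.992 on chromosome 18 with reference regions from MA9 only. Leave-one-out ranges were 1.16 to 1.21, 1.18 to 1.23 and 1.14 to 1.19 for ME and 0.964 to 1.05, 1.09 to 1.14 and 1.13 to 1.22 for BN1. Under the stricter threshold BN1 lost 1112 members, MA9 gained 695 and lost 281, and ME lost 743. Leaving out a library gave 6 to 8 gained and 2011 to 2192 lost in BN1, 1136 to 1274 and 598 to 693 in MA9, and 67 to 84 and 1469 to 1644 in ME. The cause of these changes was not tested. Unknown depth limits every call.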
